A study of Mus musculus with 8 samples.

Results

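The expression of 36 macrophage, monocyte and granulocyte marker genes was examined in whole hearts of mouse embryos at E18.5, from 3 2lox/2lox and 5 wild-type animals. The markers were taken from a fixed list of names. All 36 have at least 1 probe set annotated to them alone, out of 18194 genes on the array with such a probe set. Each gene was represented by its brightest probe set, that is, the set of short oligonucleotides whose signals are combined into 1 value for a transcript. The 2lox/2lox hearts are homozygous for a floxed allele of *Kdm1a* (*Aof2*), which encodes Lsd1, and the sample labels also call them Lsd1 knock-out. The allele had not been recombined by a Cre, and it carries point mutations in the tower domain of the protein, so that every cell of the animal makes a hypomorphic Lsd1. The wild-type hearts were described as littermates, although the labels do not say which animals shared a litter. One Affymetrix Mouse430 array was used per heart, and all values below are log2 levels as normalized by the authors. The p-values measure the spread between these animals. The targeted gene, *Kdm1a*, read 9.44, 9.53 and 9.55 in the 2lox/2lox hearts, against 10.26 to 10.36 in the wild-type hearts, in the brighter of its probe sets (limma adjusted p = 5.15e-04).

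Macrophages are phagocytes that seed the heart in the embryo, from the yolk sac and then the fetal liver, and they persist there as resident cells that clear debris and shape vessels and lymphatics. Their survival depends on the growth factor receptor encoded by *Csf1r*, and their gene program on the Ets factor PU.1, encoded by *Spi1*. Monocytes are their circulating relatives and carry the chemokine receptor Ccr2, whereas granulocytes, chiefly neutrophils, store the calcium-binding proteins S100a8 and S100a9 in large amounts. In a whole heart such cells are few among cardiomyocytes, endothelial cells and fibroblasts.

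The promoters of 5 of the genes that the results turn on are shown, since PU.1 and C/EBP factors act at the promoters of many myeloid genes. Each line gives the 250 bases before the RefSeq start of the gene (GRCm38.p6), 5′ to 3′. Capitals mark AGGAAGT, a core bound by PU.1 and other Ets factors, or TTGCNNAA, a C/EBP core with any base at N, on either strand. *Lgals3*, at chr14:47373610-47373859 on the plus strand, and *Plac8*, at chr5:100563097-100563346 on the minus strand, are the only members past the significance threshold. *Plac8* has a second start, which is not shown, and the *Lgals3* window holds neither motif. *Mrc1* is at chr2:14229164-14229413 on the plus strand, *C1qc* at chr4:136892915-136893164 on the minus strand and *S100a8* at chr3:90668821-90669070 on the plus strand.
Lgals3: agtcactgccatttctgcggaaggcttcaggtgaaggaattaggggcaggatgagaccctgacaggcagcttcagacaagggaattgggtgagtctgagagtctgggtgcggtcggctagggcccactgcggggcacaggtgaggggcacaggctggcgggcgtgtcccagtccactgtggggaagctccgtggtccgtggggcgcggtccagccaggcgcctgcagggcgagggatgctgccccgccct
Plac8: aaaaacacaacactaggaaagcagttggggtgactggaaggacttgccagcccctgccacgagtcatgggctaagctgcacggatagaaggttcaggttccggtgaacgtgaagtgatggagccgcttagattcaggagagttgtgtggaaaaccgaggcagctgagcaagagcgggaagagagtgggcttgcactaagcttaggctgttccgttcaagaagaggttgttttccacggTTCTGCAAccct
Mrc1: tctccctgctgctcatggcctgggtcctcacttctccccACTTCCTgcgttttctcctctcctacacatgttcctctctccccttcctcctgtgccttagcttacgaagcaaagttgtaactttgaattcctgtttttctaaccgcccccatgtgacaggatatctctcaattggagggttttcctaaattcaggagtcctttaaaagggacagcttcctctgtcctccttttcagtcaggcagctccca
C1qc: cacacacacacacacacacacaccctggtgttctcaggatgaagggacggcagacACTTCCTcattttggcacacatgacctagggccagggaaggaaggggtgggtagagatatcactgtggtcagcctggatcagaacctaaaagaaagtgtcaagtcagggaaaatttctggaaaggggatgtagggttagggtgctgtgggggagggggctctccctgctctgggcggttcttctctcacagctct
S100a8: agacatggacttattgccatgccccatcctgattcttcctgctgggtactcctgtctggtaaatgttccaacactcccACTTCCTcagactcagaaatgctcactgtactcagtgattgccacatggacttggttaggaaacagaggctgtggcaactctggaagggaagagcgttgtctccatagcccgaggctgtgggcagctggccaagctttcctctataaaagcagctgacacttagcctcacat

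Of the 36 members, 28 have such windows in the RefSeq table, 34 in all, because some genes have 2 starts. AGGAAGT was found in 11 of the 34 windows (10 genes), against 7.69% of all 32851 windows of this length. The motifs were chosen after other spellings had been counted, so these shares are a description and not a test of enrichment. The genes were *C1qb*, *C1qc*, *F13a1*, *Fcgr1*, *Folr2*, *Lyz2*, *Mrc1*, *Pf4*, *Ptprc* and *S100a8*, and the windows of *Ptprc* overlap each other. TTGCNNAA was found in 6 windows (*Cd68*, *Fcgr3*, *Pf4*, *Plac8* and *S100a9*), with overlapping windows for *Fcgr3*, against 9.56% of all windows. The core of an interferon response element (GAAA, any 2 bases, GAAA) was found in 2 windows (*Aif1* and *Ctss*), against 2.98%. The list with AGGAAGT holds genes whose groups did not overlap, none of which passed the test (*Mrc1*, *C1qc* and *Ptprc*), and genes with estimates near 0 (*Folr2*, *Pf4*).

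The estimates lay above 0 for nearly every marker gene, but few differences passed the test. In limma, with p adjusted by Benjamini-Hochberg across the 45101 probe sets of the array, 2 of the 36 members, *Lgals3* and *Plac8*, were higher at an adjusted p under 0.05, 0 were lower and the other 34 missed the threshold. By the same rule 0.11% of all genes were higher, and of all probe sets 0.0798% were called, 0.0621% as higher. At an unadjusted p under 0.05, 19 members were higher and 0 were lower, against 5.82% and 4.41% of all genes. The log2 fold change was positive for 35 of the 36, against 48% of all genes, and the median was 0.32, against -0.0046 over all genes. In 9 members the 3 2lox/2lox hearts all lay above the 5 wild-type hearts, which was the case for 3.16% of all genes, and no member had them all below (2.81% of all genes). Both called genes are among those that the study listed as changed in these same hearts, so their presence on the list is not independent evidence. In whole hearts, more myeloid cells and more RNA of these genes per cell cannot be told apart.

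**Figure D1:**
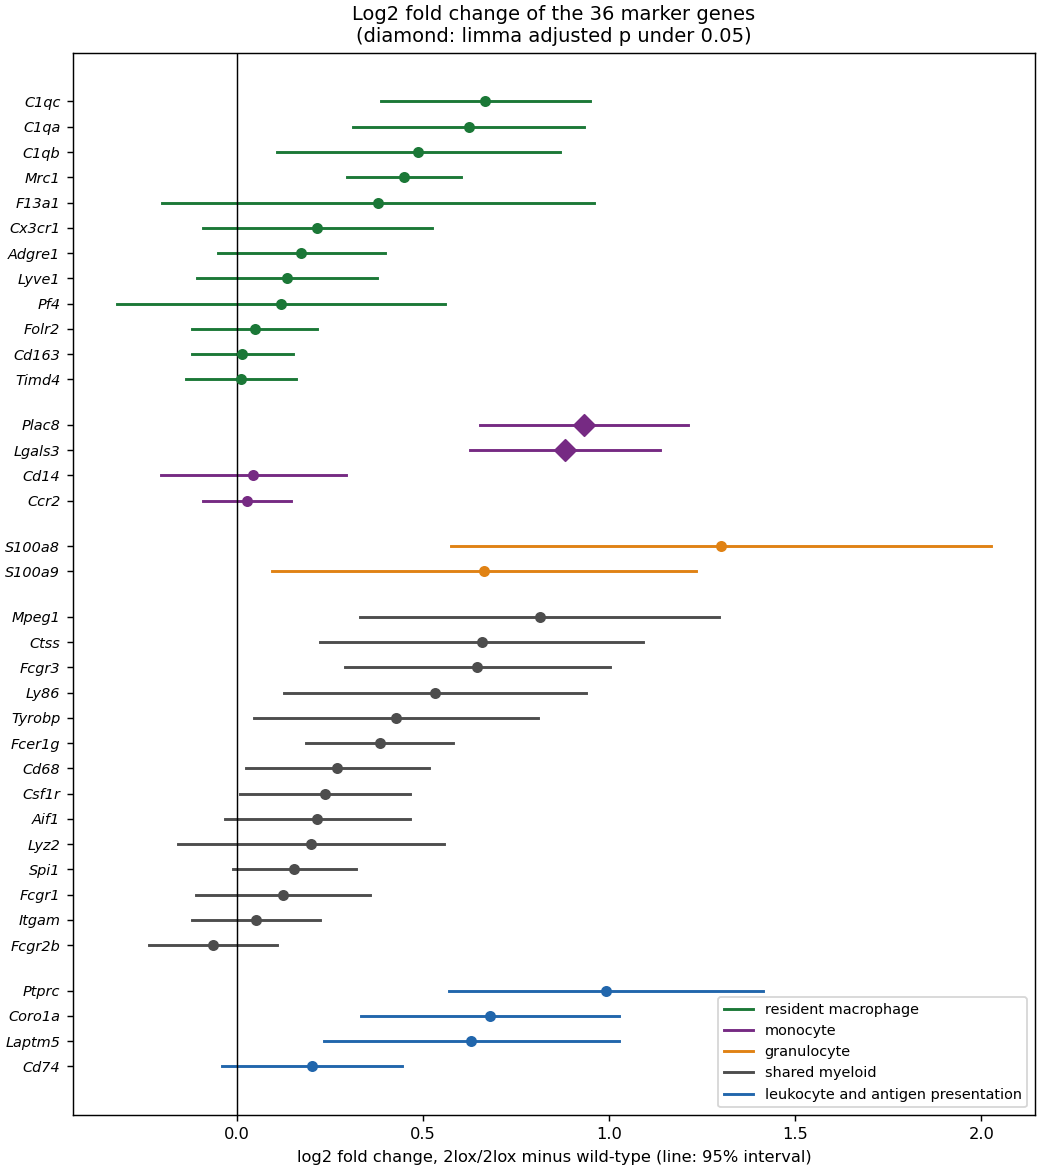
Log2 fold change (x axis, 2lox/2lox minus wild-type) of the 36 marker genes in 5 classes, from 3 2lox/2lox and 5 wild-type hearts. Points are limma estimates, lines their 95% intervals, and diamonds mark an adjusted p under 0.05. *Plac8* (0.93) and *Lgals3* (0.88) carry the only diamonds, *S100a8* has the largest estimate (1.30) with the widest interval, and *Fcgr2b* is the only gene below 0.

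The 4 monocyte markers split into a pair that rose and a pair near 0. *Lgals3*, the galectin-3 gene, also known as Mac-2 and abundant in activated macrophages (chromosome 14), read 5.85, 5.92 and 6.07 in 2lox/2lox hearts 1, 2 and 3, against 5.11, 4.95, 5.07, 4.83 and 5.39 in wild-type hearts 1 to 5. The groups did not overlap, and wild-type heart 5 came closest to the 2lox/2lox hearts. The fold was 1.84 (log2 fold change 0.88 ± 0.11 SE, limma adjusted p = 0.0240). *Plac8*, a gene of monocytes and other leukocytes, read 5.56, 5.25 and 5.57 in the 2lox/2lox hearts, against 4.48, 4.36, 4.31, 4.66 and 4.83 in the wild-type hearts. Again the groups were apart, with 2lox/2lox heart 2 the lowest of its group and wild-type heart 5 the highest of its own. The fold was 1.91 (log2 fold change 0.93 ± 0.13 SE, limma adjusted p = 0.0303).

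Both calls were lost when any 1 of several hearts was left out, although the estimates changed little. *Lgals3* no longer passed without 2lox/2lox heart 1 or 2, or without wild-type heart 1, 2 or 3 (limma adjusted p 0.0663 to 0.111), and passed by little without wild-type heart 4 (0.04996). *Plac8* no longer passed without 2lox/2lox heart 1, or without wild-type heart 1, 2, 3 or 4 (0.0625 to 0.160), while the log2 fold changes stayed between 0.82 and 0.96 for *Lgals3* and between 0.88 and 1.04 for *Plac8*. *Ccr2*, the receptor that defines inflammatory monocytes, read 6.16 to 6.17 in the 2lox/2lox hearts, against 6.06 to 6.17 among wild-type hearts in its brightest probe set (log2 fold change 0.03, 95% interval -0.09 to 0.15). Its 3 dimmer probe sets lay close to the lower quartile of all values on the arrays, 4.21, and had 0.12 to 0.30, with wild-type heart 5 above at least 1 of the 2lox/2lox hearts in each. *Cd14*, the lipopolysaccharide co-receptor, had a log2 fold change of 0.04 (95% interval -0.20 to 0.29).

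Among the 12 markers of resident macrophages, the complement genes *C1qa* and *C1qc* and the mannose receptor gene separated the groups in their brightest probe sets. The genes most used to define resident cardiac macrophages had small estimates, with intervals that include 0 in their brightest probe sets. *Timd4* and *Cd163* among them lay near background. None of the 12 passed the threshold, 4 were higher at an unadjusted p under 0.05 (5.82% of all genes) and the median log2 fold change was 0.20. The median was 0.11 without wild-type heart 3, and 0.38 over the members left by either filter on dim probe sets. *Mrc1*, the mannose receptor CD206, read 7.83, 7.97 and 7.88 in the 2lox/2lox hearts, against 7.39, 7.50, 7.45, 7.32 and 7.56 in the wild-type hearts. The hearts of each group lay close together and the groups did not overlap (log2 fold change 0.45 ± 0.069 SE, limma adjusted p = 0.0691). *Mrc1* passed without 2lox/2lox heart 3 (limma adjusted p = 0.0338), but not without 2lox/2lox heart 1 (0.149) or 2 (0.267). It passed in 2 of 21 alternatives.

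The subunits of C1q, the first component of the classical complement pathway, are made largely by macrophages, and their 3 genes lie side by side. *C1qa* read 7.15, 7.18 and 7.37 in the 2lox/2lox hearts, against 6.76, 6.79, 6.32, 6.31 and 6.87 in the wild-type hearts (log2 fold change 0.62, limma adjusted p = 0.204). *C1qc* read 6.60, 6.66 and 6.56, against 5.95, 6.17, 5.65, 5.73 and 6.20 in the wild-type hearts (log2 fold change 0.67 ± 0.13 SE, limma adjusted p = 0.133). In both genes the 2lox/2lox hearts were above all wild-type hearts, and wild-type hearts 3 and 4 were the lowest. *C1qb* had a log2 fold change of 0.49 (95% interval 0.11 to 0.87) in its brightest probe set, with 2lox/2lox heart 1 at 7.46 level with wild-type heart 5 at 7.46. Its other 2 probe sets had 0.44 and 0.56, with the groups apart in both.

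The C1q genes also lie near the targeted gene. In the RefSeq table of GRCm38.p6, 3 to 5 protein-coding genes separate them from *Kdm1a* on chromosome 4, and *Laptm5* lies within 20 Mb on the same chromosome. The part of this neighbourhood in their values was not tested. Without these 4 genes, an alternative added later, the members had a median of 0.23. Of the remaining 32, 7 had 2lox/2lox hearts above all wild-type hearts, against 3.16% of all genes.

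The other markers of resident macrophages overlapped between the groups. *Adgre1*, a surface receptor and the most used marker of mouse macrophages, read 7.39, 7.75 and 7.65 in the 2lox/2lox hearts, against 7.45, 7.56, 7.22, 7.34 and 7.55 in the wild-type hearts (log2 fold change 0.17, 95% interval -0.05 to 0.40). *Cx3cr1*, the fractalkine receptor, had 0.22 (95% interval -0.09 to 0.52) in its brightest probe set, 0.10 without wild-type heart 3, and -0.15 in its other probe set. *Lyve1*, a hyaluronan receptor of perivascular macrophages and of lymphatic vessels, had 0.13 (95% interval -0.11 to 0.38) in its brightest probe set. In the other it had 0.20 (95% interval 0.04 to 0.36). *Folr2*, a folate receptor, had 0.05 (95% interval -0.12 to 0.22). *Timd4*, a receptor for phosphatidylserine, and *Cd163*, the haemoglobin scavenger receptor, had means under that lower quartile in both groups, a level at which background and transcript cannot be told apart.

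*Pf4* and *F13a1* are expressed by embryonic macrophages and also by megakaryocytes and platelets. *Pf4*, platelet factor 4, read 7.58, 8.28 and 7.49 in the 2lox/2lox hearts, against 7.63, 7.51, 7.46, 8.16 and 7.56 in the wild-type hearts. One heart in each group, 2lox/2lox heart 2 and wild-type heart 4, stood above the others. These were also the hearts with the highest mean level over 8 platelet genes, at 5.96 and 5.97, against 5.59 to 5.75 in the other hearts of both groups. *F13a1*, coagulation factor XIII subunit A, had a log2 fold change of 0.38 (95% interval -0.20 to 0.96), with wild-type hearts from 5.92 to 7.08.

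**Figure D2:**
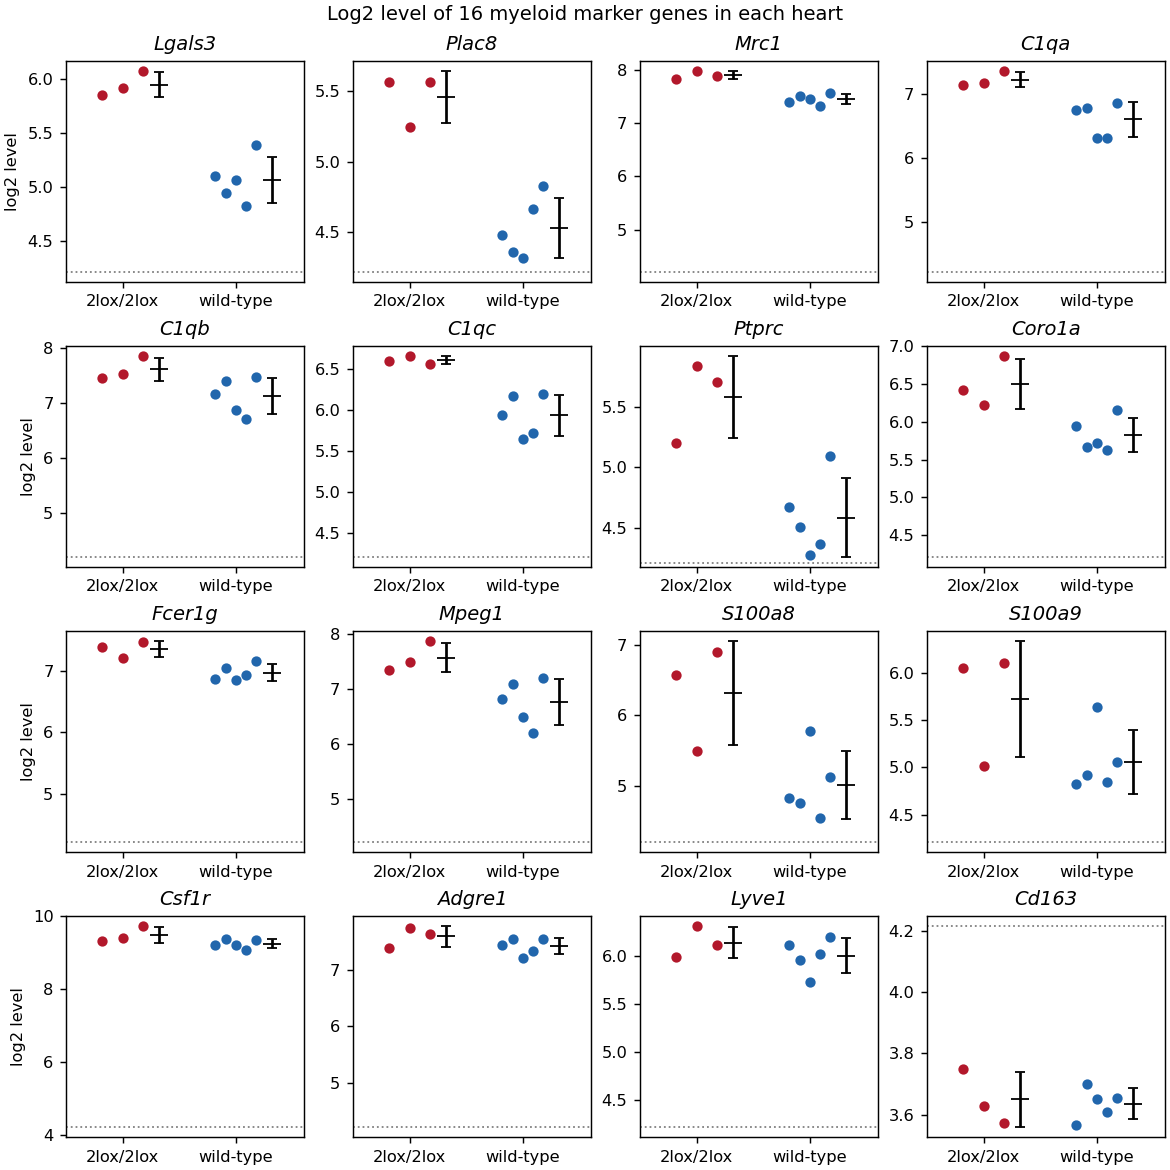
Log2 level (y axis) of 16 marker genes in each heart, 3 2lox/2lox hearts left and 5 wild-type hearts right in each panel, with hearts in the order of their number. Horizontal bars with whiskers give group means ± SD, a dotted line gives the lower quartile over the arrays (4.21), and each panel has its own y scale. The groups are apart for *Lgals3*, *Plac8*, *Mrc1*, *C1qa*, *C1qc*, *Ptprc*, *Coro1a*, *Fcer1g* and *Mpeg1*, and overlap for the other 7.

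The granulocyte markers had the largest estimate of the list and the largest spread. *S100a8* read 6.57, 5.49 and 6.89 in the 2lox/2lox hearts, against 4.84, 4.77, 5.78, 4.56 and 5.14 in the wild-type hearts. Wild-type heart 3 lay above 2lox/2lox heart 2, so the groups overlapped (fold 2.46, log2 fold change 1.30 ± 0.33 SE, limma adjusted p = 0.229). *S100a9*, whose protein pairs with S100a8 as calprotectin, read 6.05, 5.01 and 6.10, against 4.83, 4.92, 5.64, 4.85 and 5.05 in the wild-type hearts (log2 fold change 0.66, limma adjusted p = 0.383), and had 1.02 without 2lox/2lox heart 2. Both genes ranked the hearts alike at the top, with 2lox/2lox hearts 3 and 1 and then wild-type heart 3 the highest of the 8. Of 13 other measured granulocyte genes, including those of granule proteins, limma called 0 (at an unadjusted p under 0.05, 0 higher and 1 lower), and their median was 0.03. Their mean level was 4.51 to 4.59 in the 2lox/2lox hearts, against 4.49 to 4.61 among wild-type hearts. This is under the median of all values, 5.07, and 4 of the 13 had means under the lower quartile, 4.21. Signals near background limit this comparison.

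Of the 14 genes shared by myeloid cells, none reached the threshold, whereas 8 were higher at an unadjusted p under 0.05 (5.82% of all genes) and the median log2 fold change was 0.25. *Mpeg1*, the macrophage pore-forming protein perforin-2, read 7.35, 7.50 and 7.87 in the 2lox/2lox hearts, against 6.82, 7.09, 6.48, 6.19 and 7.20 in the wild-type hearts. The groups were apart (log2 fold change 0.81 ± 0.22 SE, limma adjusted p = 0.250). *Ctss*, the protease cathepsin S, had 0.66 (limma adjusted p = 0.284), and 2lox/2lox heart 1, at 8.24, lay under wild-type heart 2, at 8.34. *Ly86* (MD-1), a partner of a Toll-like receptor homologue, had 0.53 (limma adjusted p = 0.337).

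The receptors for IgG had unlike estimates. *Fcgr3*, an activating receptor, read 6.18, 6.69 and 6.81 in the 2lox/2lox hearts, against 6.03, 5.97, 5.65, 5.70 and 6.21 in the wild-type hearts, where only wild-type heart 5 reached a 2lox/2lox heart (log2 fold change 0.65, limma adjusted p = 0.228). *Fcer1g*, the signalling chain that the activating receptors share, read 7.38, 7.21 and 7.46 in the 2lox/2lox hearts, against 6.86, 7.05, 6.85, 6.92 and 7.16 in the wild-type hearts, with no overlap (log2 fold change 0.38 ± 0.089 SE, limma adjusted p = 0.215). *Tyrobp*, the related adaptor DAP12, had 0.43 (limma adjusted p = 0.401), and 0.22 without 2lox/2lox heart 3. *Fcgr1*, the high-affinity receptor, had 0.12 in its brightest probe set and 0.32 in the other, where the 2lox/2lox hearts were above all wild-type hearts. *Fcgr2b*, the inhibitory receptor, which endothelial cells also express, was the only member with a negative estimate (-0.06, 95% interval -0.24 to 0.11), and its 4 other probe sets had -0.01 to 0.20.

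The lineage genes of macrophages had small estimates. *Csf1r*, the receptor on which macrophages depend, read 9.34, 9.40 and 9.73 in the 2lox/2lox hearts, against 9.21, 9.39, 9.21, 9.08 and 9.37 in the wild-type hearts. Its log2 fold change was 0.24 (95% interval 0.01 to 0.47, limma adjusted p = 0.439), and its other 2 probe sets had 0.23 and 0.29. The groups were apart in the probe set with 0.29 (limma adjusted p = 0.219). In the brightest probe set, the estimate for *Csf1r* was 0.12 without 2lox/2lox heart 3, the highest of its group there. *Spi1*, the gene of PU.1, had 0.15 (95% interval -0.01 to 0.32). *Cd68*, a lysosomal glycoprotein, had 0.27, *Aif1* (Iba1), an actin-binding protein, 0.22 and *Lyz2*, lysozyme, 0.20, none of them past the threshold (limma adjusted p 0.414 to 0.730). Without 2lox/2lox heart 3, *Aif1* had 0.11 and *Lyz2* -0.0032. *Itgam*, the integrin CD11b, had a mean under the lower quartile of all values in both groups.

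The genes found in most leukocytes gave large estimates that held in some probe sets only, and some of the other probe sets were near background. *Ptprc*, the leukocyte common antigen CD45, read 5.20, 5.84 and 5.70 in the 2lox/2lox hearts, against 4.68, 4.51, 4.28, 4.37 and 5.10 in the wild-type hearts. The groups were apart, although 2lox/2lox heart 1 exceeded wild-type heart 5 by little (fold 1.99, log2 fold change 0.99 ± 0.19 SE, limma adjusted p = 0.140). Without wild-type heart 5 *Ptprc* passed, at a limma adjusted p of 0.0450, which was the case in only 1 of 20 alternatives. The dimmer probe set of *Ptprc* had -0.11, with means of 4.24 in the 2lox/2lox and 4.35 in the wild-type hearts, close to the lower quartile of all values, 4.21. *Coro1a*, an actin regulator of leukocytes, read 6.43, 6.22 and 6.87, against 5.94, 5.67, 5.72, 5.63 and 6.16 in the wild-type hearts (log2 fold change 0.68, limma adjusted p = 0.213). Its other probe sets had 0.53, with the groups apart, and -0.03, with means under that quartile in both groups. *Laptm5*, a lysosomal membrane protein gene of blood cells, had 0.63 (limma adjusted p = 0.267) in the brightest of its 5 probe sets, and -0.12 to 0.18 in the others. Its probe sets with negative estimates were not near background. Their group means were 5.87 to 6.28, above the median of all values, 5.07. When probe sets designed to match several transcripts were left out (IDs ending in _s_at, _x_at or _a_at), the dimmer ones took the place of those of *Ptprc*, *Coro1a* and *Laptm5*, *Cd74* had none left, and the median of the class was -0.11 in place of 0.65. *Cd74*, the invariant chain of class II antigen presentation, had 0.20 (95% interval -0.04 to 0.44).

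Of the 21 further probe sets of the 10 members with more than 1, 14 had a positive and 7 a negative log2 fold change, and none passed the threshold. In 7 the 2lox/2lox hearts lay above all wild-type hearts, against 3.16% of all genes by their brightest probe set. With the mean of all probe sets of each gene in place of the brightest, the median over the 36 was 0.26, and *Mrc1*, which has a single probe set, passed as well (limma adjusted p = 0.0258, adjusted over genes).

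The hearts of a group differed in the level of many members at once. Among the 2lox/2lox hearts, heart 3 was the highest for 21 of 36 members and the lowest for 6, while over all genes it was the highest for 35.9% and the lowest for 33.9%. Among the wild-type hearts, heart 5 was the highest for 18 members and the lowest for 0, against 19.2% and 21.4% of all genes. Wild-type hearts 3 and 4 were the lowest for 13 and 14 members. Averaged over the 36 genes, a heart differed from the wild-type mean by 0.34, 0.33 and 0.52 in 2lox/2lox hearts 1, 2 and 3, against 0.01, 0.04, -0.09, -0.13 and 0.18 in wild-type hearts 1 to 5. The highest wild-type heart thus lay closer to the lowest 2lox/2lox heart than to the lowest wild-type heart. The classes did not share one order of hearts: 2lox/2lox heart 2 was the lowest of its group for both granulocyte markers and the highest for 6 of 12 resident macrophage markers.

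**Figure D3:**
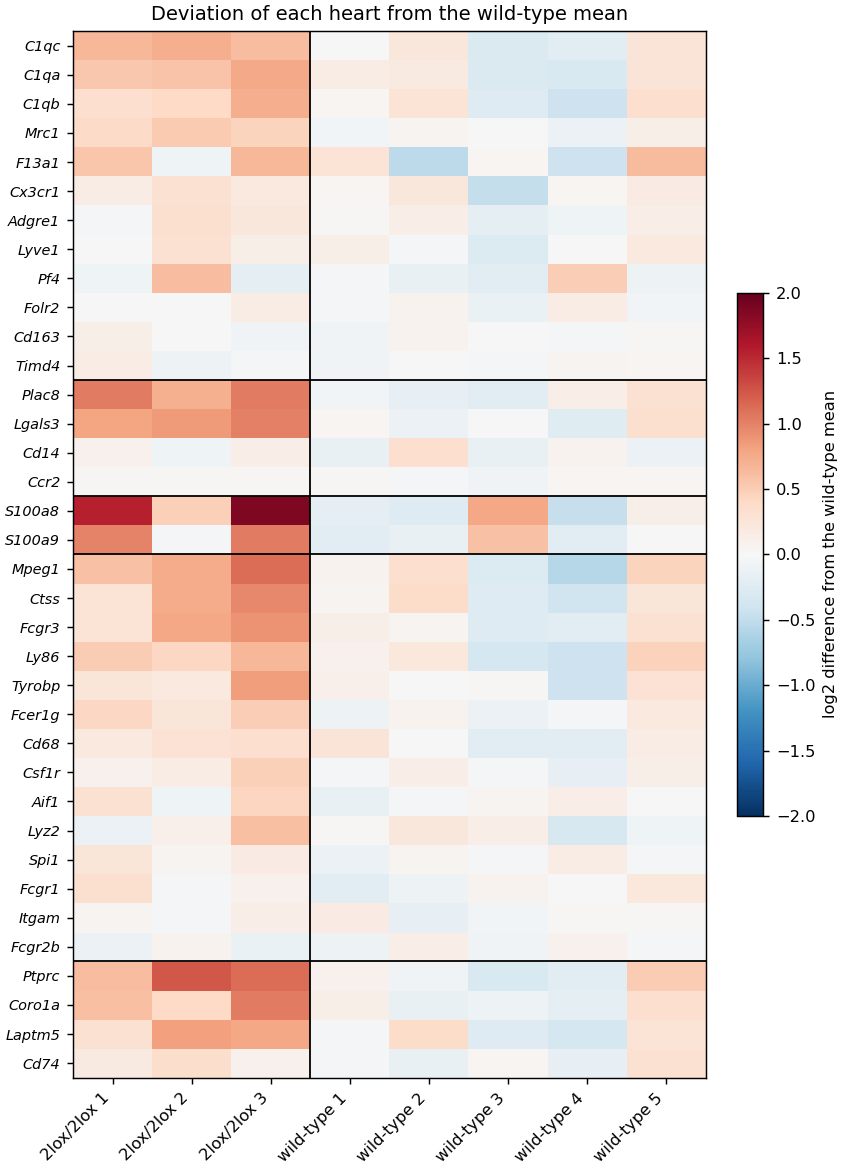
Log2 difference of each heart from the wild-type mean (colour) for the 36 marker genes, with the 3 2lox/2lox hearts in the left columns and the 5 wild-type hearts in the right ones. Lines part the classes, which run from resident macrophage, monocyte, granulocyte and shared myeloid to leukocyte and antigen presentation genes from top to bottom. Wild-type heart 5 is reddish in most genes and wild-type hearts 3 and 4 bluish, and *S100a8* and *S100a9* are reddest in 2lox/2lox hearts 1 and 3 and in wild-type heart 3.

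A list of 50 further myeloid genes, which also holds genes known from earlier results of these hearts, had 45 measured members. One of them passed, as higher (0.11% of all genes), and the study had also listed it as changed in these same hearts. It was *Cybb*, which encodes the catalytic part of the oxidase with which phagocytes kill microbes, with 5.46, 5.60 and 5.57 in the 2lox/2lox hearts, against 4.76, 4.70, 4.55, 4.49 and 5.06 in the wild-type hearts (log2 fold change 0.83, limma adjusted p = 0.0346). *Cybb* no longer passed without 2lox/2lox heart 2 or without wild-type heart 1, 2, 3 or 4, where 0 genes of this and the other lists were called. Of the 45, 16 were higher and 0 lower before adjustment (p under 0.05), against 5.82% and 4.41% of all genes. In 11 the 2lox/2lox hearts lay above all wild-type hearts, against 3.16% of all genes, while the median was 0.10. *Csf2ra*, a subunit of the GM-CSF receptor, had 0.45 (limma adjusted p = 0.107), *Gpnmb*, a glycoprotein of lipid-laden macrophages, 0.43 (limma adjusted p = 0.151) and *Plek*, a protein kinase C substrate of platelets and leukocytes, 0.69 (limma adjusted p = 0.158), with the groups apart in each.

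Of 23 measured growth factors, chemokines and cytokines of macrophages, limma called 0, and the median was 0.03. Before adjustment 2 were higher and 0 lower (p under 0.05), against 5.82% and 4.41% of all genes. *Ccl9*, a chemokine that macrophages secrete, read 5.83, 5.58 and 5.84 in the 2lox/2lox hearts, against 5.30, 5.26, 5.30, 5.15 and 5.39 in the wild-type hearts (log2 fold change 0.47, limma adjusted p = 0.0935). *Ccl2*, the main ligand of Ccr2, read 6.25, 6.55 and 6.60, against 6.06, 6.15, 6.08, 5.50 and 6.13 in the wild-type hearts (log2 fold change 0.48, limma adjusted p = 0.301). In both chemokines the groups were apart, as in *Ccl3* (log2 fold change 0.10), whereas *Ccl24* had -0.14 and overlapped. These 3 of 23 had 2lox/2lox hearts above all wild-type hearts, against 3.16% of all genes. Of the 23 estimates, 14 were positive and 9 negative, against 48% positive over all genes.

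The lists of markers of other cell types had medians near 0. None of the genes in the lists for mast cells, dendritic cells, lymphocytes and thymus, platelets, erythroid cells, lymphatic and other endothelium, fibroblasts, cardiomyocytes and lung epithelium passed the test (limma), and the medians lay between -0.05 and 0.10. At an unadjusted p under 0.05, 0 to 2 genes of a list were higher and 0 to 1 lower, against 5.82% and 4.41% of all genes. The most were 2 of 10 endothelial genes, both higher. The lymphatic endothelial and endothelial lists had the highest medians, 0.095 and 0.086, close to the 0.10 of the further myeloid genes. Single genes differed by more, in both directions. The fibroblast and epicardial gene *Tcf21* read 9.28, 8.80 and 9.33 in the 2lox/2lox hearts, against 9.50 to 9.70 in the wild-type hearts, with no overlap (log2 fold change -0.45, limma adjusted p = 0.228), and the collagen gene *Col1a1* had 0.44 (limma adjusted p = 0.438). The mean level of 16 lymphocyte and thymus genes was 4.52 to 4.63 in the 2lox/2lox hearts, against 4.47 to 4.59 among wild-type hearts. The mean level of 10 erythroid genes, a measure of blood left in the heart, was 6.26 to 6.78 in the 2lox/2lox hearts, against 5.83 to 7.49 among wild-type hearts, with wild-type heart 4 the highest of all 8 and also the lowest on average over the 36 members. The hearts carried the markers of their tissue, with a mean level of 13.28 to 13.38 in the 2lox/2lox hearts, against 13.28 to 13.37 among wild-type hearts over 10 cardiomyocyte genes, and lung epithelial genes averaged at most 4.65.

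**Figure D4:**
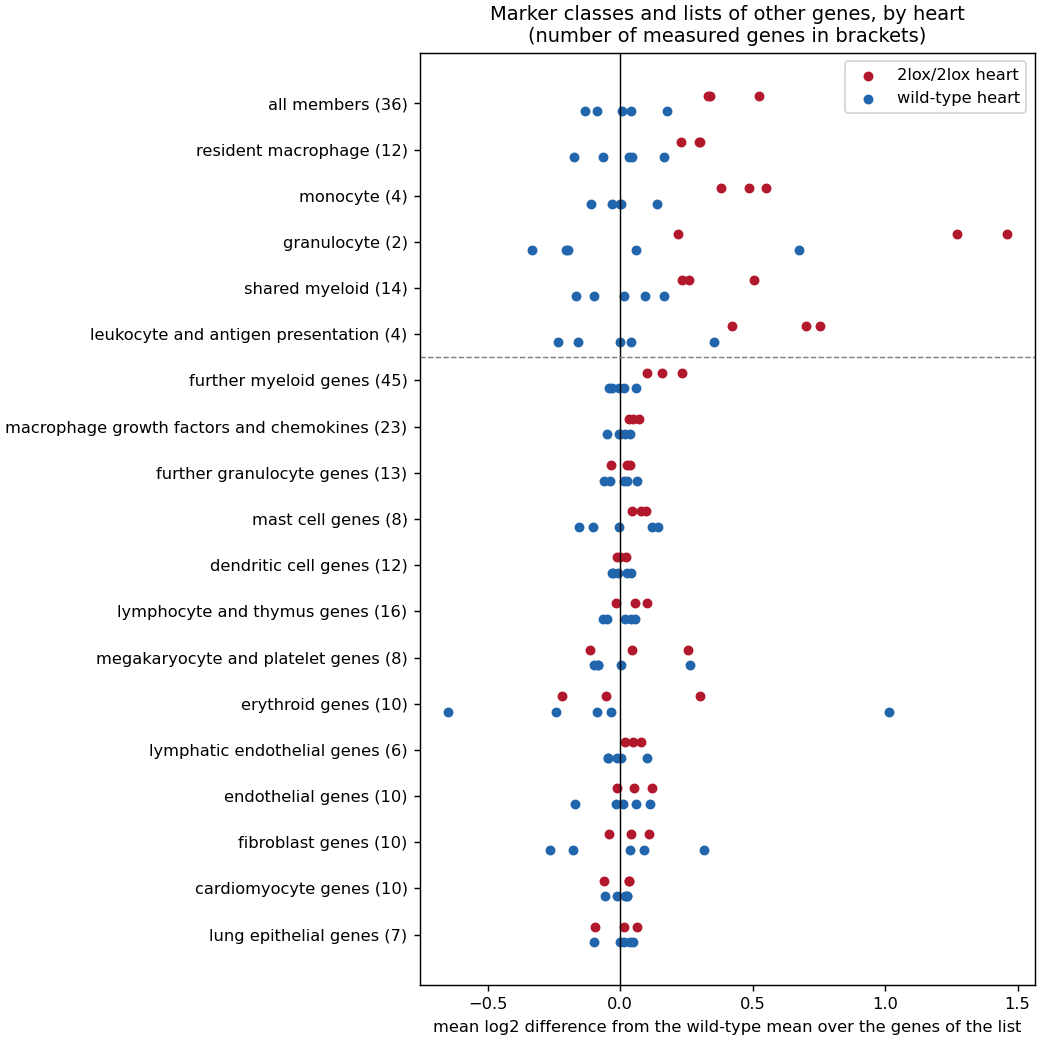
Log2 difference of a heart from the wild-type mean, averaged over the genes of each list (x axis), with 1 point per heart (3 2lox/2lox hearts in the upper and 5 wild-type hearts in the lower line of each list). The marker classes are above the dashed line and other lists below it. Over all members the 2lox/2lox hearts lie at 0.33 to 0.52 and the wild-type hearts at -0.13 to 0.18, while the erythroid genes spread most among the wild-type hearts, at -0.65 to 1.02.

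RNA quality and sex were not balanced over the hearts. A measure of RNA degradation, the 3′ level less the 5′ level averaged over the control probe sets for *Actb* and *Gapdh*, was 0.52 and 0.50 in 2lox/2lox hearts 1 and 2, against 0.33 in 2lox/2lox heart 3 and 0.32 to 0.38 in the wild-type hearts. For 18S rRNA, the control probe set at the 5′ end read 8.60, 9.07 and 8.45 in the 2lox/2lox hearts, against 9.55 to 11.49 in the wild-type hearts, so this measure separated the groups, and its part in the results was not tested. With the 3′ less 5′ difference as a covariate no member passed, *Lgals3* had a log2 fold change of 0.97 and *Plac8* 1.05 (limma adjusted p = 0.264 and 0.263), and the median over the members was 0.45. *Xist*, which females express, was high in 2lox/2lox heart 3 and wild-type heart 2 only, and without those hearts neither gene passed (limma adjusted p = 0.0525 and 0.0578, with log2 fold changes of 0.79 and 0.84).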

How the data were processed

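RNA of 8 whole hearts was hybridized to Affymetrix Mouse430 arrays. The table deposited by the authors gives 45101 probe sets on a log2 scale, already normalized, with array medians of 5.03 to 5.10. The submitters' notes name limma, and how probes were summarized and normalized is not given in these sources. No further normalization, filter or detection call was applied. The number of arrays limits the precision.

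Probe sets were named from the platform annotation, updated through a RefSeq table of GRCm38.p6. Of all probe sets, 34958 had 1 gene, 932 several and 9211 none. Groups came from the labels. A linear model with the contrast 2lox/2lox minus wild-type was fitted by limma 3.58.1 (lmFit and eBayes, R 4.3.3). P-values are two-sided, adjusted by Benjamini-Hochberg across the whole array, and called under 0.05. The scripts were tested on simulated data.

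Members, classes, lists and tests were chosen with earlier results of these data known. All members are described, and of the other lists up to 4 genes with the smallest p. Alternatives were moderation, normalization, dim filters, array weights, probe set choice, covariates, a replicate block and each heart left out. The motifs were chosen after other spellings had been counted.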

Additional observations from a re-analysis of the deposited data

Results flagged for a closer look

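In groups of 5 hearts, 1 wild-type heart stood far from the other 4 for some results, measured as its gap to the nearest heart over the whole range of the group. This was so in 11 of 107 groups examined. For independent, normally distributed groups chance gives about 1 in 20. These groups share the same 5 hearts, so an excess over chance cannot be read from the count. *Pf4* was high in wild-type heart 4 (0.756), as was the mean level of megakaryocyte and platelet genes (0.722) and the erythroid gene *Ermap* (0.812). *Ccl2* (0.856), *Myh7*, a cardiac myosin gene (0.779), and *Nkx2-1*, a lung transcription factor gene near background (0.711), were low in the same heart. *S100a9* was high in wild-type heart 3 (0.722), where *Cx3cr1* was low (0.722). *Nppa*, the atrial natriuretic peptide gene, was low in wild-type heart 5 (0.759), *Ccl3* in wild-type heart 2 (0.715) and the dendritic cell gene *Ccr7* in wild-type heart 1 (0.769).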

How the results depend on the processing

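Every alternative kept the median over the members positive, between 0.23 and 0.45. The number of members called higher was 2 as reported and 1 with probe sets above the median level only (where *Plac8* was left out), 1 with the sex score as a covariate, 0 with the 3′ minus 5′ covariate and 0 without both hearts with high *Xist*, an alternative chosen after the data were examined. It was 0 to 3 with each heart left out in turn. The members whose groups were apart numbered 9 as reported and 9 to 16 with each heart left out, the highest being without 2lox/2lox heart 1. Groups with fewer hearts lie apart more easily. The share over all genes is not given for these settings, so a higher count cannot be read as a larger difference. Genes called in the other lists, 1 as reported (*Cybb*), numbered 0 with quantile normalization, median centring, the filter at the median, gene means, the sex score, the 3′ minus 5′ covariate and without the hearts with high *Xist*, and 0 to 2 with each heart left out. The cause of these losses was not tested.

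The replicate number as a replicate block gave 0 members and 0 genes of the other lists. Same-numbered hearts did not deviate together (correlations 0.01, -0.08 and -0.05), so the numbers were not treated as pairs.

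Of 740 values of single members under the alternatives, 706 kept direction and side of the threshold, and 27 of 36 genes never changed direction. For the 34 members not called, keeping the side means only that they stayed uncalled. Alternatives that change the moderation alone leave every estimate as it was. The tally is thus no measure of how firm the calls are. *Lgals3* passed in 13 of 21 alternatives and *Plac8* in 11 of 20. Without probe sets whose IDs end in _s_at, _x_at or _a_at, *Ptprc* had -0.11, *Laptm5* -0.12 and *Coro1a* -0.028. The median of their class was then -0.11. These values came from dimmer probe sets. The 2lox/2lox and wild-type means were 4.24 and 4.35 for *Ptprc*, and 4.05 and 4.07 for *Coro1a*. Signals near background thus limit this comparison for both genes. For *Laptm5* the means were 6.16 and 6.28, above the median of all values, 5.07. The 3′ minus 5′ covariate moved the median of the shared myeloid genes to 0.45, and gene means that of the leukocyte genes to 0.30. Gene means gave *Fcgr2b* 0.025, and leaving out the hearts with high *Xist* gave it 0.0059 and *Itgam* -0.027. The 3′ minus 5′ covariate gave *Timd4* -0.02 and *Cd163* -0.064. With each heart left out in turn, *Timd4* ranged between -0.057 and 0.063, *Cd163* between -0.035 and 0.053, *Pf4* between -0.13 and 0.26 and *Lyz2* between -0.0032 and 0.36. Signals near background limit *Timd4*, *Cd163* and *Itgam*.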
